A study of Homo sapiens with 12 samples.

Results

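The 10 genes described here, GRHL1, GRHL3, CSTA, RNASE7, SCEL, AQP3, TGM1, KRT75, DSP and JUP, belong to the epidermal differentiation and barrier programme and had differed between treated and control U2OS cells in an earlier look at the same arrays. They were found on the array through the platform's probe annotation, by probe sets paired with a single gene. This gave 18 probe sets of the 54675 in the table, and the 10 genes are 10 of the 13673 genes tested. U2OS is an osteosarcoma line with its own wild-type p53, so every group is the same bone tumour line and none is an epidermal cell.

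The study held 12 Affymetrix Human Genome U133 Plus 2.0 arrays in 4 groups of 3. One group of cells had received 0.6 µg/ml doxorubicin, and its control had received no treatment. Another had received 10 µM nutlin-3, and its control had received 0.1% DMSO, the solvent. All cells were taken at 24 hours. Doxorubicin is a topoisomerase II poison that breaks DNA, while nutlin-3 keeps MDM2 from binding p53 without breaking DNA. The labels do not say whether the arrays of a group came from separate cultures, so a p-value measures only the spread between these arrays, which may be technical.

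In the epidermis, keratinocytes leave the basal layer, strengthen their desmosomes and keratin filaments, and build a cornified envelope of crosslinked proteins with a lipid coat. Grainyhead-like transcription factors drive parts of this barrier programme in mouse skin. The finished barrier also carries protease inhibitors and antimicrobial proteins. The factor p53 that both agents act on is a transcription factor best known for arrest, repair and death genes.

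A MAS5 signal is a linear brightness per probe set, and signals of different probe sets were not set against each other. Log2 changes were taken on log2(signal + 16), which understates the change of dim genes, and are given with their standard error (SE). Calls were made with limma at an adjusted p under 0.05 (Benjamini-Hochberg, all 13673 genes). Genes whose mean lay under a signal of 49.3 were not tested; all 10 genes passed. GRHL3 and RNASE7 averaged under that signal in untreated cells and passed through their treated groups. Because the 10 genes were chosen for their changes with the agents, those changes are given as descriptions with no p. DMSO against no treatment is described in the same way, since the untreated and DMSO arrays also entered the choice.

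With doxorubicin, 7 of the 10 genes were called higher than in untreated cells (GRHL1, GRHL3, CSTA, RNASE7, AQP3, DSP and JUP) and 3 were called lower (SCEL, TGM1 and KRT75). Over all genes tested, 30.1% were called higher and 25.6% lower with doxorubicin. With nutlin-3, 5 genes were called higher than in DMSO (GRHL3, CSTA, RNASE7, AQP3 and DSP), 2 were called lower (GRHL1 and SCEL) and 3 were not called (TGM1, KRT75 and JUP). Over all genes tested, 12.5% were called higher and 13.9% lower with nutlin-3. The arrays of the treated and control groups did not overlap for all 10 genes with doxorubicin, 7 higher and 3 lower (32.4% and 26.5% of all genes), and for 6 higher and 2 lower with nutlin-3 (21.2% and 21.9% of all genes). Nothing is read from these shares, since the genes were chosen on these contrasts. Thus 5 genes were higher with both agents, SCEL was lower with both, and GRHL1 was higher with doxorubicin and lower with nutlin-3. The genes' median log2 change was 1.11 with doxorubicin and 0.69 with nutlin-3, against 0.08 and 0.01 over all genes tested.

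**Figure D1:**
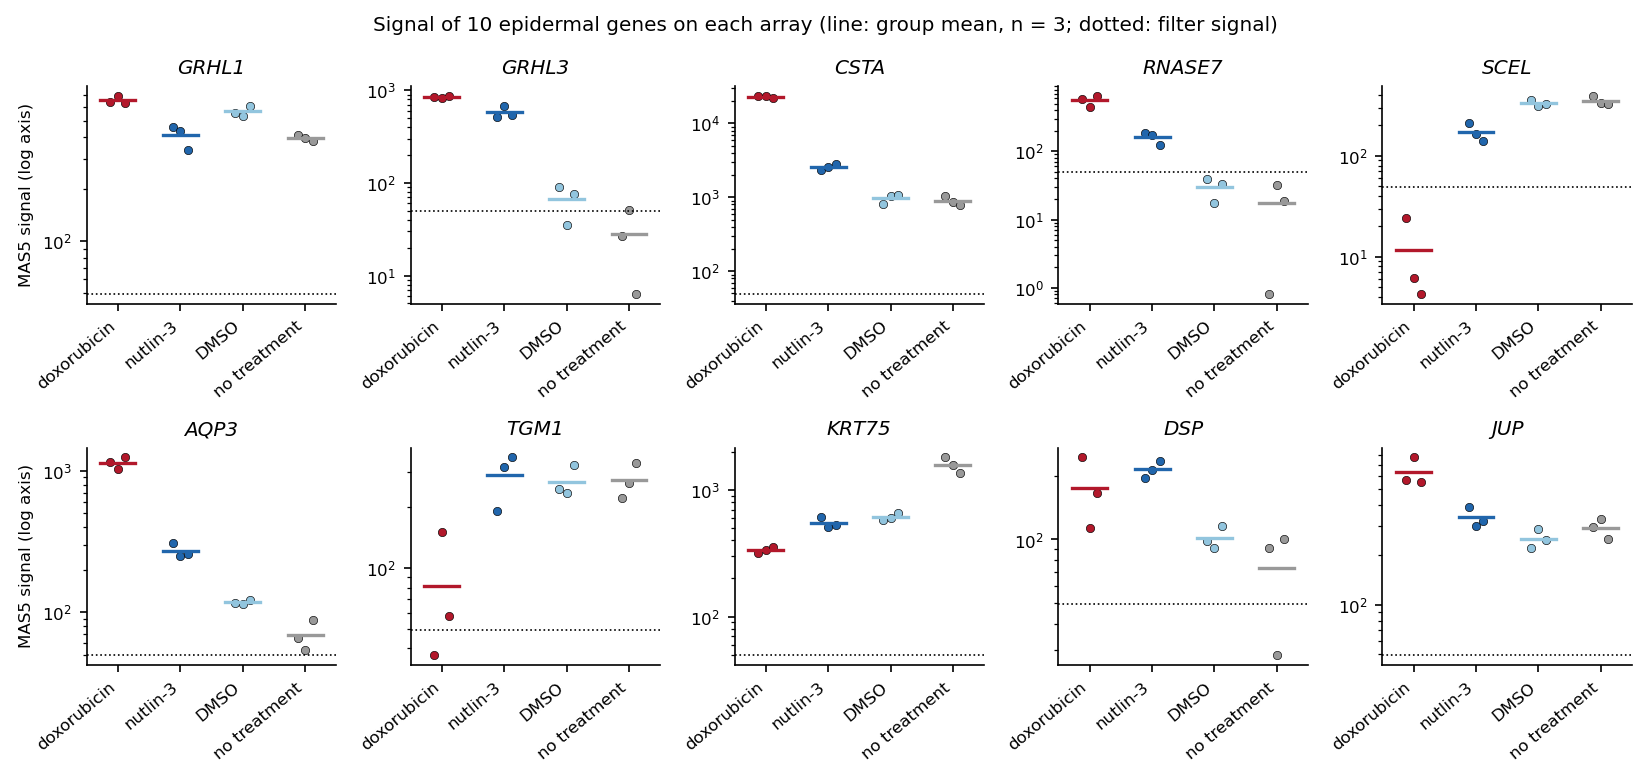
Signal of the representing probe set of each of the 10 genes on every array (log axis, MAS5 signal), by group: doxorubicin, nutlin-3, DMSO and no treatment. Points are arrays, short lines are group means, and the dotted line is the signal of 49.3 under which genes were not tested. CSTA reaches 21932 to 23515 with doxorubicin, while SCEL stays between 4.27 and 24.2 there.

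The plot of signals by array shows how the genes divide. CSTA, RNASE7 and AQP3 are highest with doxorubicin, next with nutlin-3 and lowest in both controls, with no overlap between those steps. GRHL3 follows the same order, but its nutlin-3 arrays lie nearer to the doxorubicin arrays. SCEL runs the other way, lowest with doxorubicin and next with nutlin-3. TGM1 is set apart by the doxorubicin arrays alone. KRT75 is highest in the untreated arrays and lowest with doxorubicin, both without overlap, while nutlin-3 and DMSO overlap.

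Because both agents act on p53, the 250 bases before the annotated starts were searched for p53 half-sites and for 3 other short motifs. RefSeq (GRCh38.p14) had promoter entries for 8 of the 10 genes, 10 promoters in all; CSTA and TGM1 are named only. The motifs were the p53 half-site, ACCGGT (a grainyhead-type site), TGANTCA (an AP-1 site) and CACCC (a site of Krüppel-like factors), on both strands, and none was required not to overlap another. The p53 half-site was in 2 of the 10 promoters, against 5.57% of all 35116 promoters of that length. TGANTCA was in 2 against 6.57%, ACCGGT in 0 against 1.45%, and CACCC in 9 against 54.7%. The 3 promoters with a p53 half-site or TGANTCA are shown, 5′ to 3′ on the plus strand, with those motifs in capitals.
GRHL3, second start, chr1:24322790-24323039: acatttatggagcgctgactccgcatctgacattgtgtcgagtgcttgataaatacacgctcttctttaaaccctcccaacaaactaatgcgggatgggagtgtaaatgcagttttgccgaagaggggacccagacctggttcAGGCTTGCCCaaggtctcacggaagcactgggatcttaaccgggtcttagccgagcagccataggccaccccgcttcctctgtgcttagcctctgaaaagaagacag
RNASE7, chr14:21042112-21042361: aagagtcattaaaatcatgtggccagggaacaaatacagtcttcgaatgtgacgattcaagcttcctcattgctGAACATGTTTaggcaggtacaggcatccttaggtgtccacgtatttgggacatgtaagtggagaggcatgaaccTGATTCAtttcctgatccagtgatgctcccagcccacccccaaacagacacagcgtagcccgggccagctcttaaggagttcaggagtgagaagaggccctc
SCEL, chr13:77535456-77535705: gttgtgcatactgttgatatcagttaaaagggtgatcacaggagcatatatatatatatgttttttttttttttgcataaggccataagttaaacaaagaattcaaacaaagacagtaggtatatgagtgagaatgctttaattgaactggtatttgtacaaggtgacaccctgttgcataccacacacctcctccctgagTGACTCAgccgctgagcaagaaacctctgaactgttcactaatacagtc
The GRHL3 half-site lies at -107 to -98 from that start, and the RNASE7 half-site at -176 to -167. The TGANTCA match lies at -102 to -96 in RNASE7 and at -49 to -43 in SCEL. A match describes the letters of these windows and is neither a bound site nor a cause of a change.

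GRHL3 encodes a grainyhead-like transcription factor needed for the epidermal barrier in mouse. Its single probe set, 232116_at, gave 852, 817 and 871 with doxorubicin, against 26.8, 50.8 and 6.34 in untreated cells. With nutlin-3 it gave 514, 676 and 542, against 89.3, 35.6 and 76.4 in DMSO. Every treated array was far above every control array, and the doxorubicin arrays were all above the nutlin-3 arrays. The log2 change was 4.43 ± 0.31 (SE) with doxorubicin and 2.89 ± 0.31 with nutlin-3, a difference of 1.54 ± 0.44. As the untreated level is dim, the doxorubicin change depends on the pseudocount, at 5.27 with a pseudocount of 1 and 3.34 with 64. The order of the agents depends on the control: with the controls exchanged (doxorubicin against DMSO, nutlin-3 against no treatment) the changes were 3.44 and 3.88.

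GRHL1 encodes a related factor that in mouse regulates a desmosomal cadherin. Its probe set 222830_at gave 642, 696 and 637 with doxorubicin, against 412, 395 and 383 in untreated cells. Nutlin-3 arrays gave 461, 437 and 336, against 555, 535 and 606 in DMSO. The doxorubicin arrays were higher than the untreated ones and the nutlin-3 arrays lower than the DMSO ones, without overlap. Log2 changes were 0.71 ± 0.12 with doxorubicin and -0.45 ± 0.12 with nutlin-3. The opposite directions rest on the controls, since DMSO arrays were themselves above the untreated ones: with controls exchanged, the changes were 0.22 with doxorubicin and 0.040 with nutlin-3, and neither was called. The nutlin-3 call was also lost without nutlin-3 array 3 (-0.32) and without DMSO array 3 (-0.40). The other probe set, 1552685_a_at, gave 57.7 to 136 with doxorubicin against 44.6 to 71.3 in untreated cells, and 17.8 to 73.7 with nutlin-3 against 65.0 to 93.1 in DMSO, and both pairs overlapped. The third family member, GRHL2, was not among the 10 genes; it was dim throughout, at 37.4 to 99.1 with doxorubicin and 23.9 to 38.0 in untreated cells.

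CSTA encodes cystatin A, an inhibitor of cysteine proteases that is also built into the cornified envelope. Its probe set 204971_at gave 23241, 23515 and 21932 with doxorubicin, against 1044, 870 and 792 in untreated cells. The nutlin-3 signals were 2324, 2563 and 2823, against 819, 1044 and 1076 in DMSO. The treated arrays stood above their controls without overlap, and the doxorubicin arrays stood far above the nutlin-3 arrays. The mean signal with doxorubicin was 25.4 times that of untreated cells, and with nutlin-3 it was 2.62 times that of DMSO. Log2 changes were 4.65 ± 0.12 with doxorubicin and 1.38 ± 0.12 with nutlin-3. Of the 10 genes CSTA was the most stable, with doxorubicin changes of 4.58 and 4.67 under the pseudocounts of 64 and 1, and 4.53 against DMSO.

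SCEL encodes sciellin, a precursor protein of the cornified envelope, and moved the other way. Its probe set 206884_s_at gave 24.2, 6.12 and 4.27 with doxorubicin, against 393, 336 and 330 in untreated cells. With nutlin-3 it gave 209, 165 and 140, against 359, 311 and 325 in DMSO. The doxorubicin arrays were near the bottom of the scale, and the nutlin-3 arrays lay between them and both controls. These gave log2 changes of -3.81 ± 0.24 with doxorubicin and -0.91 ± 0.24 with nutlin-3. The size with doxorubicin depends on the pseudocount, at -5.17 with 1 and -2.47 with 64. The nutlin-3 call was lost without nutlin-3 array 3 (-0.78), with a pseudocount of 1 (-0.97) and with sets other than _x_at and _s_at preferred (-0.55).

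SCEL had 3 further probe sets. Set 232056_at gave 17.9 to 43.8 with doxorubicin, against 116 to 182 in untreated cells, a log2 change of -1.82 ± 0.31. Set 1554921_a_at gave 3.39 to 28.9 with doxorubicin, against 53.2 to 89.3 in untreated cells, and was too dim to be tested. Both were lower without overlap, like the brighter set. With nutlin-3 both overlapped DMSO. Set 1554920_at was at most 14.8 on every array and carried no pattern, with doxorubicin and untreated arrays overlapping.

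TGM1 encodes the transglutaminase that crosslinks envelope proteins at the keratinocyte membrane. Its probe set 206008_at gave 36.9, 151 and 57.6 with doxorubicin, against 223, 263 and 330 in untreated cells. Nutlin-3 arrays gave 193, 317 and 353, against 247, 235 and 323 in DMSO. The doxorubicin arrays were all lower than every other array but spread widely among themselves, and nutlin-3 and DMSO overlapped. Its log2 change was -1.72 ± 0.32 with doxorubicin and 0.07 ± 0.32 with nutlin-3. Leaving out single arrays moved the doxorubicin value between -2.19 and -1.36.

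RNASE7 encodes a secreted antimicrobial ribonuclease of skin. All 3 of its probe sets were higher with each agent without overlap. Set 234700_s_at, which represents the gene, gave 590, 452 and 647 with doxorubicin, against 0.814, 32.5 and 19.0 in untreated cells. It gave 186, 172 and 122 with nutlin-3, against 39.0, 17.2 and 33.2 in DMSO. The log2 change was 4.23 ± 0.34 with doxorubicin and 1.95 ± 0.34 with nutlin-3. Both controls are dim, so the doxorubicin size ranged between 2.95 with a pseudocount of 64 and 5.71 with a pseudocount of 1.

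The other RNASE7 probe sets behaved alike in direction. Set 233488_at gave 687 to 917 with doxorubicin, against 1.70 to 7.71 in untreated cells, and 143 to 165 with nutlin-3, against 3.09 to 30.2 in DMSO. Set 234699_at gave 224 to 266 with doxorubicin, against 14.8 to 20.3 in untreated cells, and 71.2 to 96.5 with nutlin-3, against 1.76 to 12.3 in DMSO. Their log2 changes with doxorubicin were 5.30 ± 0.32 and 2.99 ± 0.28. Doxorubicin arrays were above nutlin-3 arrays in all 3 sets. A probe set whose name ends in _s_at, as for RNASE7, SCEL and JUP here, can match more than one transcript. The close relative RNASE8 was among the other epidermal genes listed below, but not among those tested.

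AQP3 encodes a channel for water and glycerol in the basal epidermis. Its probe set 39248_at gave 1157, 1024 and 1247 with doxorubicin, against 65.5, 53.6 and 88.5 in untreated cells. The nutlin-3 signals were 308, 248 and 258, against 116, 115 and 121 in DMSO. The groups did not overlap at any step, doxorubicin being highest, then nutlin-3, DMSO and untreated cells. Log2 changes were 3.78 ± 0.16 with doxorubicin and 1.10 ± 0.16 with nutlin-3. The other sets showed less: 39249_at gave 174 to 266 with doxorubicin, against 60.8 to 109 in untreated cells, and overlapped between nutlin-3 and DMSO. Set 203747_at gave 54.6 to 203 with doxorubicin, against 13.0 to 94.1 in untreated cells, with overlap, and 66.4 to 72.9 with nutlin-3, against 11.4 to 41.5 in DMSO. Averaging the 3 sets gave changes of 2.14 with doxorubicin and 0.79 with nutlin-3.

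**Figure D2:**
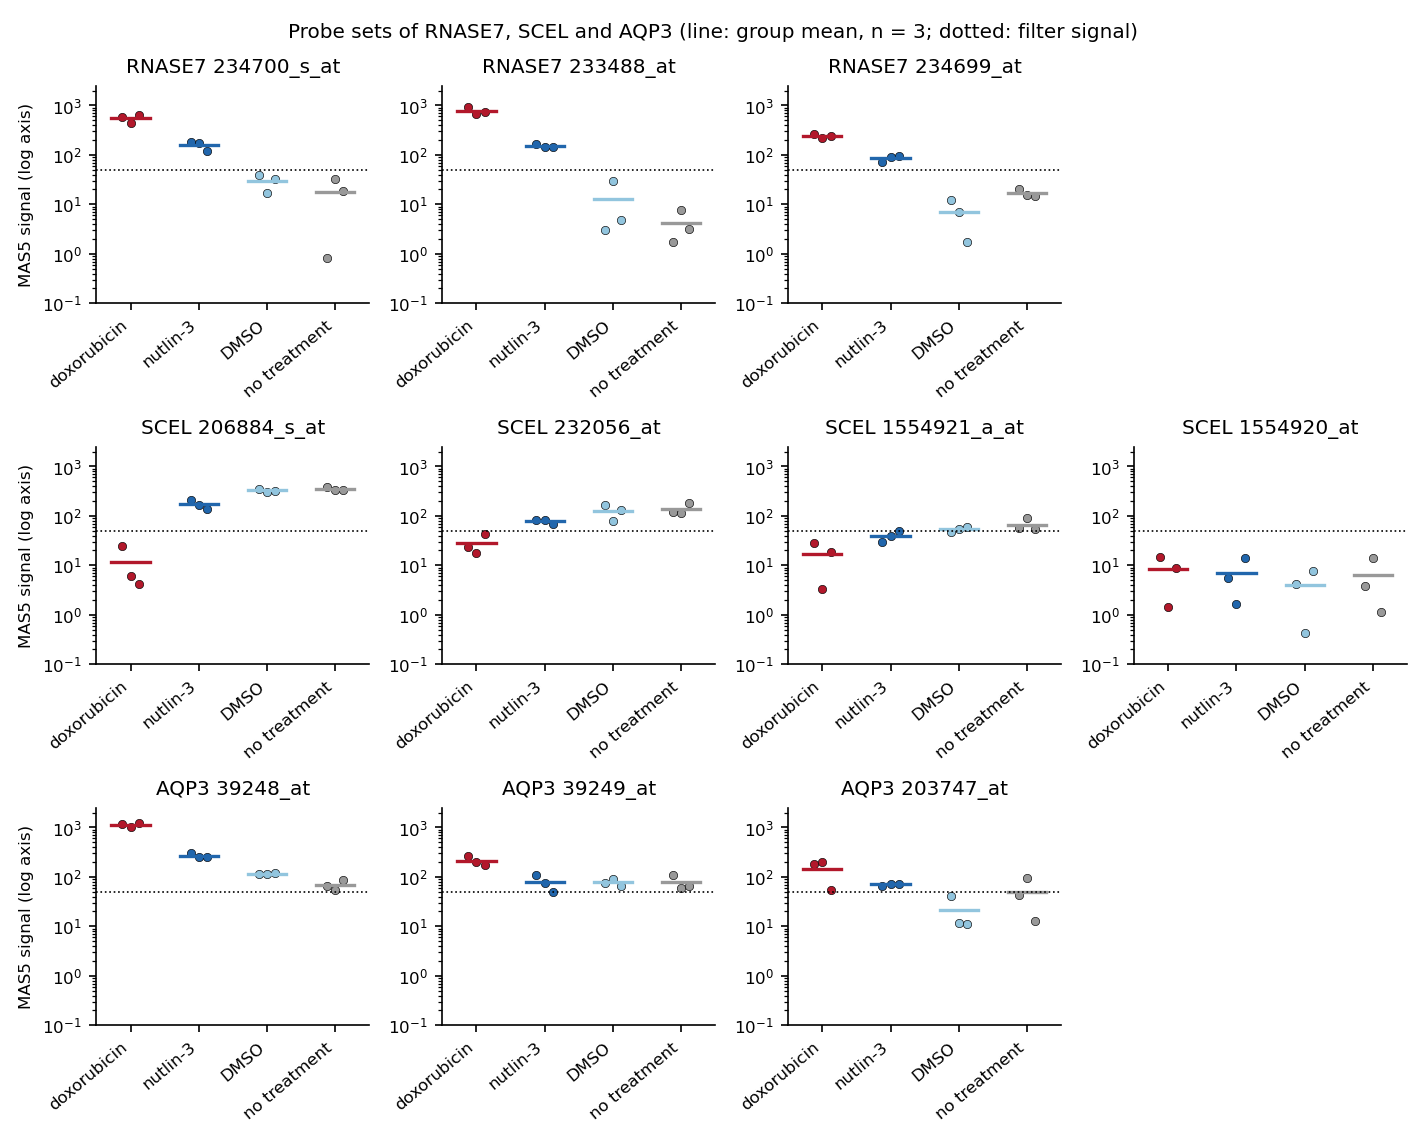
Signal on every array of the probe sets of RNASE7 (3 sets), SCEL (4 sets) and AQP3 (3 sets), on a log axis, by group. Points are arrays. The RNASE7 sets are higher with both agents in each of the 3 panels, 3 of the 4 SCEL sets are lower with doxorubicin, and the AQP3 sets differ in how far they separate the groups.

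KRT75 encodes a keratin of the hair follicle's companion layer. Its probe set 207065_at gave 317, 335 and 356 with doxorubicin, against 1808, 1582 and 1358 in untreated cells. With nutlin-3 it gave 610, 510 and 525, against 577, 604 and 659 in DMSO. The untreated arrays were the highest of the 12 and the doxorubicin arrays the lowest, and nutlin-3 overlapped DMSO. Its log2 change was -2.17 ± 0.12 with doxorubicin and -0.16 ± 0.12 with nutlin-3. The contrast between the agents depends on the control: against DMSO the doxorubicin change was -0.84, and against no treatment the nutlin-3 change was -1.50, so the sign of the difference turned to 0.66.

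DSP encodes desmoplakin, which ties keratin filaments to desmosomes. Its probe set 200606_at gave 245, 114 and 166 with doxorubicin, against 91.2, 28.3 and 100 in untreated cells. With nutlin-3 it gave 196, 214 and 236, against 98.3, 91.4 and 115 in DMSO. Treated arrays were above their controls, narrowly so with doxorubicin, and the agents overlapped each other. The log2 change was 1.16 ± 0.32 with doxorubicin and 0.98 ± 0.32 with nutlin-3, and the difference of 0.18 ± 0.45 was not called. The doxorubicin change was 0.71 without untreated array 2, the lowest of the 12, and its call was lost against DMSO (0.64). The nutlin-3 call was lost when any of the 3 nutlin-3 arrays or DMSO array 1 or 2 was left out, with values of 0.91 to 1.04, and with a pseudocount of 1 (1.08), no filter or no intensity trend.

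JUP encodes plakoglobin, the desmosomal plaque partner of desmoplakin. Its probe set 201015_s_at gave 569, 776 and 550 with doxorubicin, against 294, 331 and 248 in untreated cells. Nutlin-3 arrays gave 390, 300 and 319, against 220, 286 and 246 in DMSO. Neither treated group overlapped its control, though nutlin-3 came close. The log2 change was 1.07 ± 0.16 with doxorubicin and 0.40 ± 0.16 with nutlin-3, which was not called. The difference of 0.67 ± 0.23 was called, and the call was lost without doxorubicin array 2 (0.51), nutlin-3 array 2 (0.59) or 3 (0.64), DMSO array 2 (0.57) or untreated array 3 (0.56).

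**Figure D3:**
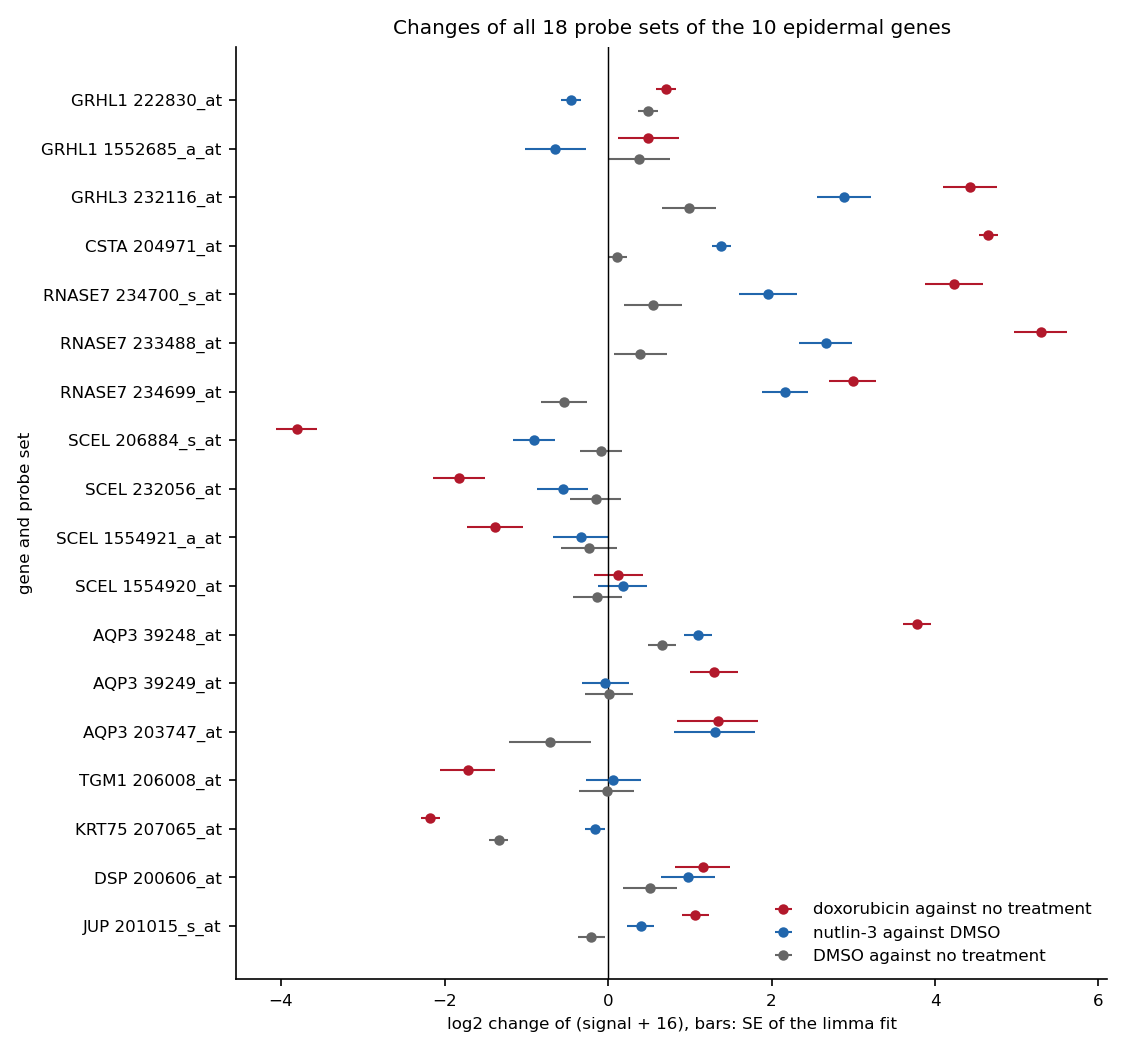
Log2 change with its SE of the 18 probe sets of the 10 genes. Shown are doxorubicin against no treatment, nutlin-3 against DMSO, and DMSO against no treatment. Points right of 0 are higher in the first-named group. CSTA, RNASE7, GRHL3 and AQP3 carry the largest rises with doxorubicin among these sets, and SCEL 206884_s_at the largest fall.

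The plot of probe set changes sets all 18 probe sets side by side. With doxorubicin, 10 sets were higher and 5 lower than in untreated cells without overlap, and 3 overlapped (GRHL1 1552685_a_at, SCEL 1554920_at and AQP3 203747_at). With nutlin-3, 9 were higher and 2 lower than in DMSO, and 7 overlapped. Over the 54613 probe sets that are not controls, arrays did not overlap for 38.4% with doxorubicin (21.9% higher, 16.5% lower) and 26.9% with nutlin-3 (13.5% higher, 13.4% lower). Where a gene had several sets, no 2 of them were separated in opposite directions. The difference between the agents' responses was called higher with doxorubicin for 6 genes (GRHL1, GRHL3, CSTA, RNASE7, AQP3 and JUP) and lower for 3 (SCEL, TGM1 and KRT75), against 21.8% and 17.7% of all genes (39.5% in either direction). These values come from the contrasts on which the genes were chosen.

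DMSO alone separated some of these genes from untreated cells. Of the 10, 3 were called higher in DMSO than in untreated cells and 1 lower, against 8.14% and 5.98% of all genes (14.1% in either direction). Nothing is read from these counts, as the same control arrays set the choice of genes. KRT75 was lower in DMSO by a log2 change of -1.34 ± 0.12, and all 3 DMSO arrays were below all 3 untreated arrays. GRHL1 was higher by 0.49 ± 0.12 and AQP3 by 0.66 ± 0.16, both without overlap (18.7% of all genes were higher and 14.8% lower in DMSO without overlap). The GRHL1 call was lost with the mean of its probe sets (0.44) and without DMSO array 3 (0.44). The AQP3 call was lost with the mean of its 3 probe sets (-0.011), in a fit of the 6 arrays and without untreated array 2 (0.53). GRHL3 was called higher by 0.99 ± 0.31, but it had passed the filter through its treated groups, averaged 67.1 in DMSO and under 49.3 in untreated cells with overlapping arrays, and lost the call in 18 of 24 alternatives. The other 6 genes were not called and lay between -0.20 (JUP) and 0.55 (RNASE7), with CSTA at 0.12 ± 0.12 and SCEL at -0.09 ± 0.24. The RNASE7 sets, all dim in both controls, differed in direction. Set 233488_at gave 0.40 ± 0.32, while 234699_at gave -0.54 ± 0.28, with its DMSO arrays (1.76 to 12.3) all below the untreated ones (14.8 to 20.3). Each agent is set against its own control unless exchanged controls are named.

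For each gene, the gene with the most similar profile over the 12 arrays was sought among 13663 others by Pearson's r, as a description. CSTA was nearest to MORC4 (r = 0.998), AQP3 to STX16 (0.996), SCEL to NRXN3 (0.992), GRHL3 to TMEM87B (0.989) and RNASE7 to TRIM8 (0.988). NRXN3 changed by -3.11 with doxorubicin and -0.75 with nutlin-3 on the log2 scale, close to SCEL itself. JUP was nearest to SLC12A4 (0.983), KRT75 to ASB13 (0.972), TGM1 to VPS36 (0.959), DSP to ARVCF (0.953) and GRHL1 to DNAJA4 (0.948). DNAJA4 shared the opposite directions of GRHL1, with 0.97 and -0.49. Among the 10 genes, CSTA and AQP3 had r = 0.973, CSTA and SCEL r = -0.983, and GRHL1 and DSP r = 0.139. These arrays form 4 groups, so such values mainly describe the group means.

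Another 159 epidermal genes in 9 lists were set beside the 10, of which 137 had a one-gene probe set and 74 were bright enough to test. Of the 74, 30 were called higher and 15 lower with doxorubicin, 60.8% in all against 55.7% of all genes. With nutlin-3, 13 were called higher and 7 lower, 27% in all against 26.4% of all genes. Their median log2 changes were 0.31 and 0.10. Both shares are near those of all genes. The difference between the agents was called for 52.7% of the 74, against 39.5% of all genes, and DMSO against no treatment for 24.3%, against 14.1%. For 5 of the 74 (ABCA12, CEBPA, KRT79, LCE1B and LORICRIN) both control groups averaged under the signal of 49.3, so they were tested through their treated groups, and they are given with no p. Of the other 69, 26 were called higher and 15 lower with doxorubicin, and 11 higher and 7 lower with nutlin-3. Over all genes tested, 30.1% were called higher and 25.6% lower with doxorubicin, and 12.5% higher and 13.9% lower with nutlin-3. The lists were also chosen with earlier results known.

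Of 10 epidermal transcription factors, 8 were called higher with doxorubicin and 0 lower, against 30.1% and 25.6% of all genes, with a median of 1.10. The 8 include CEBPA, which passed the filter through its treated groups, so nothing is read from its part of the count. CEBPA, a factor of keratinocyte differentiation, averaged 461 ± 19.0 with doxorubicin, against 44.9 ± 8.21 in untreated cells (SD, n = 3 each; log2 change 2.98 ± 0.24). OVOL2, a repressor that maintains epithelial identity, changed by 1.67 ± 0.18 (limma, adjusted p = 5.92e-07), but lost the call when sets other than _x_at and _s_at were preferred. With nutlin-3, 2 of 10 were called higher and 0 lower, against 12.5% and 13.9% of all genes. They were MAF (0.55 ± 0.14, limma adjusted p = 0.00585), whose call was lost under the same choice, and KLF5 (0.36 ± 0.12, adjusted p = 0.0369). The KLF5 call was lost without nutlin-3 array 2 or 3 or any 1 DMSO array, at 0.29 to 0.40.

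Of 8 cornified envelope genes, 5 were called higher and 1 lower with doxorubicin, and 2 higher with nutlin-3. In all, 75% were called with doxorubicin and 25% with nutlin-3, against 55.7% and 26.4% of all genes. The rises include LCE1B (both agents) and LORICRIN (doxorubicin). Both passed the filter through their treated groups, so nothing is read from their part of the counts. LCE1B, a late envelope protein, averaged 947 ± 79.1 with doxorubicin, against 47.6 ± 14.7 in untreated cells (SD, n = 3 each; log2 change 3.94 ± 0.21). It averaged 155 ± 27.3 with nutlin-3, against 45.9 ± 10.2 in DMSO (log2 change 1.47 ± 0.21). LORICRIN, the main envelope protein, averaged 220 ± 40.1 with doxorubicin, against 31.5 ± 23.0 in untreated cells. With nutlin-3 LORICRIN was not called (0.96 ± 0.39). ANXA1, like SCEL and TGM1, was lower with doxorubicin (-0.99 ± 0.09, limma adjusted p = 5.70e-08).

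Of 10 lipid barrier genes, 5 were called higher and 0 lower with doxorubicin, and 1 higher and 1 lower with nutlin-3. In all, 50% were called with doxorubicin and 20% with nutlin-3, against 55.7% and 26.4% of all genes. The rises with both agents include ABCA12. It passed the filter through its treated groups, so nothing is read from its part of the counts. ABCA12, the transporter that loads lipids into lamellar bodies, averaged 279 ± 20.1 with doxorubicin, against 25.4 ± 7.70 in untreated cells (SD, n = 3 each; log2 change 2.85 ± 0.27). With nutlin-3 its log2 change was 1.48 ± 0.27, at dim mean signals of 77.3 with nutlin-3 and 17.1 in DMSO. SMPD1, acid sphingomyelinase, changed by 1.55 ± 0.10 with doxorubicin (limma, adjusted p = 9.43e-10).

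Of 10 proteases and inhibitors, 4 were called higher and 1 lower with doxorubicin, and 1 higher and 2 lower with nutlin-3. In all, 50% were called with doxorubicin and 30% with nutlin-3, against 55.7% and 26.4% of all genes. CTSV, a cathepsin that cystatins inhibit, went opposite ways: 1.42 ± 0.12 with doxorubicin and -0.81 ± 0.12 with nutlin-3 (limma adjusted p = 2.08e-08 and 4.40e-05). CTSC, a cathepsin that activates other proteases, was lower with doxorubicin, at 3883 ± 574 against 7782 ± 1054 in untreated cells (SD, n = 3 each; adjusted p = 2.01e-06).

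Keratins and junction genes were divided. Of 9 keratins, 1 was called higher and 4 lower with doxorubicin, and 3 higher and 1 lower with nutlin-3. In all, 55.6% were called with doxorubicin and 44.4% with nutlin-3, against 55.7% and 26.4% of all genes. Among the nutlin-3 rises, the KRT18 call was lost against no treatment (0.0085). KRT15, a basal layer keratin, averaged 472 ± 28.3 with nutlin-3, against 69.1 ± 20.7 in DMSO (SD, n = 3 each; log2 change 2.55 ± 0.34, limma adjusted p = 2.47e-05). KRT14, its basal relative, was lower with doxorubicin (-1.66 ± 0.24, adjusted p = 1.49e-05), but, like KRT75, it was also lower in DMSO than in untreated cells (97.2 ± 22.2 against 372 ± 28.3), and doxorubicin against DMSO gave 0.13. Of 14 desmosome and junction partners of DSP and JUP, 4 were called higher and 6 lower with doxorubicin, and 0 higher and 2 lower with nutlin-3. That is 71.4% with doxorubicin and 14.3% with nutlin-3, against 55.7% and 26.4% of all genes. CLDN1, a tight junction claudin, averaged 4642 ± 289 with doxorubicin, against 535 ± 101 in untreated cells (log2 change 3.09 ± 0.14, adjusted p = 1.19e-11). OCLN, a partner at the same junction, averaged 451 ± 46.5 with doxorubicin, against 2775 ± 243 in untreated cells (log2 change -2.58 ± 0.11, adjusted p = 6.54e-12), and was also lower with nutlin-3 (-0.78 ± 0.11, adjusted p = 2.68e-05).

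Of 7 hemidesmosome and basal adhesion genes, 3 were called higher and 2 lower with doxorubicin, and 4 higher and 0 lower with nutlin-3. That is 71.4% with doxorubicin and 57.1% with nutlin-3, against 55.7% and 26.4% of all genes. ITGA6, the hemidesmosome integrin alpha chain, was higher with both agents (0.64 ± 0.15 with doxorubicin, 1.11 ± 0.15 with nutlin-3; limma adjusted p = 0.00165 and 2.66e-05). LAMB3, a laminin-332 chain, was higher with nutlin-3 (1.00 ± 0.11, adjusted p = 2.09e-06). It was also called lower in DMSO than in untreated cells (1493 ± 67.9 against 2262 ± 270). Over the alternatives its nutlin-3 change kept its sign but went down to 0.42. Of 3 tested aquaporins beside AQP3, 0 were called higher, and AQP1 was lower with both agents (-0.42 ± 0.15 and -0.99 ± 0.15; adjusted p = 0.0240 and 7.93e-05). The doxorubicin call of AQP1 was lost without doxorubicin array 1 or 2 or untreated array 1 or 2, at -0.39 to -0.32, and the nutlin-3 call was lost against no treatment (-0.34). Of 3 tested antimicrobial genes beside RNASE7, 0 were called with either agent.

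**Figure D4:**
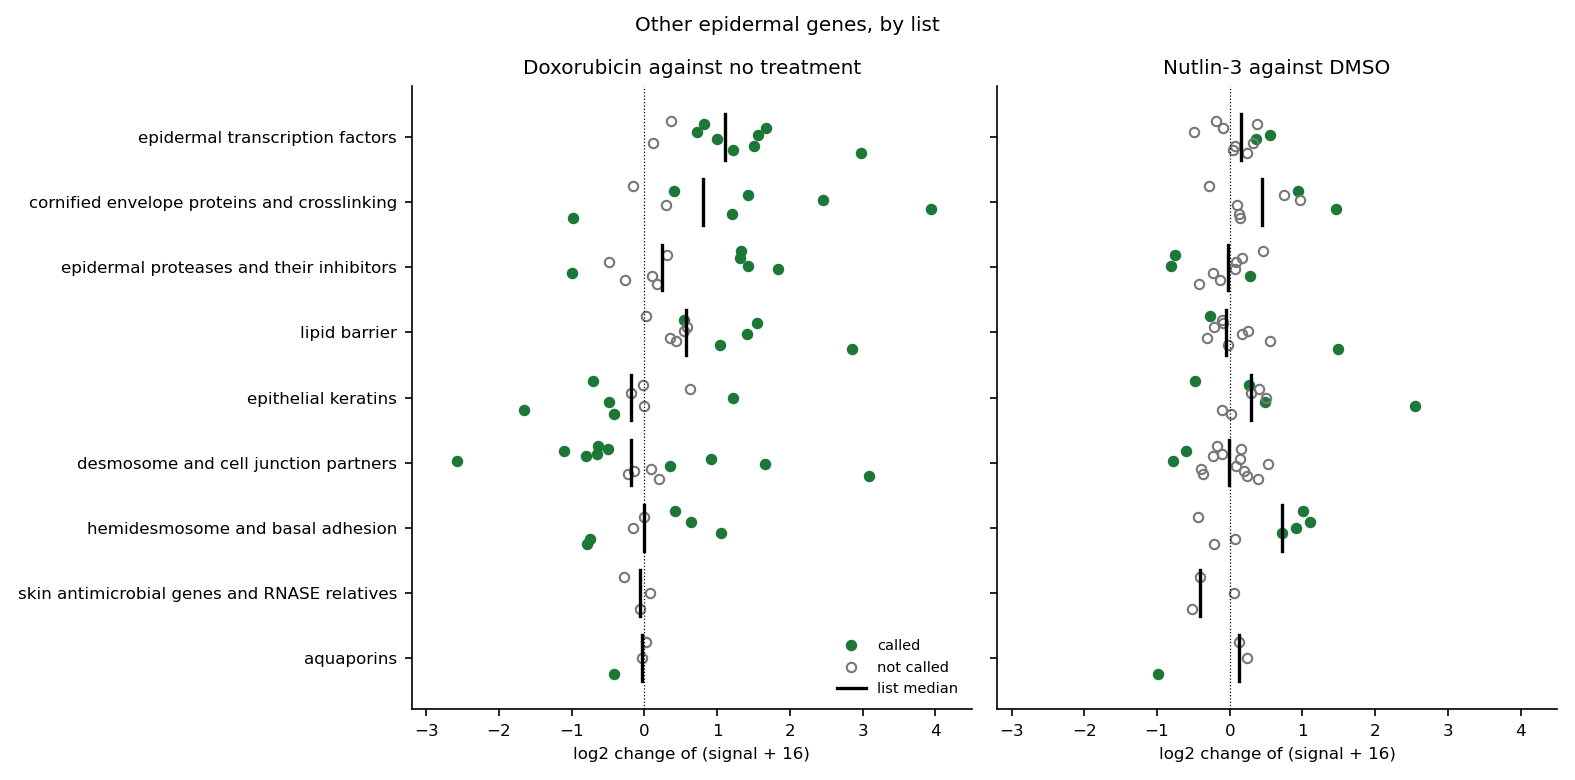
Log2 change of each tested gene of the 9 lists of other epidermal genes with doxorubicin against no treatment and with nutlin-3 against DMSO. Filled points were called, open points were not, and bars are list medians. The transcription factor list has 8 filled points right of 0 with doxorubicin and 2 with nutlin-3, while the junction list has filled points on both sides. CEBPA, LCE1B, LORICRIN and ABCA12 passed the filter through their treated groups.

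The plot of the lists shows that the spread within a list was wide: with doxorubicin, the 74 genes lay between -2.58 (OCLN) and 3.94 (LCE1B). The changes of the 10 genes lay between -3.81 (SCEL) and 4.65 (CSTA).

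Some properties of the arrays moved with doxorubicin and are given beside these results; their part in them was not tested. The ratio of 3′ to 5′ signal of ACTB control probe sets was 2.48 to 3.59 with doxorubicin, against 1.44 to 1.58 in untreated cells, and 1.28 to 1.33 with nutlin-3, against 1.25 to 1.31 in DMSO. The same ratio of GAPDH was 0.993 to 1.21 with doxorubicin, against 0.980 to 1.05 in untreated cells, with overlap. On the doxorubicin array of lowest ACTB ratio alone, itself above every untreated array, SCEL was -3.19, TGM1 -2.43 and DSP 1.67, with the spread taken from the other groups. There the difference between the agents was 1.55 for GRHL3 and 0.54 for JUP, against 1.54 and 0.67 as given. These are sizes only, and whether a call held is not read from a single array. Arrays shared a trimmed mean signal of 500.1, had medians of 79.6 to 114 and correlated at 0.98 to 0.991 within groups. Centring arrays on their medians turned the share of doxorubicin calls that were higher to 38.4%, against 54% as given, and of DMSO calls to 80.3%, against 57.7%. It moved the median log2 change of all genes to -0.10 with doxorubicin, against 0.08 as given, and to 0.15 in DMSO, against 0.02; the 10 genes kept every call against their controls.

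The marker lists of other cell types describe the cells themselves. Of 8 osteoblast and mesenchyme markers, 4 (COL1A1, SPARC, VIM and FN1) averaged 13304 (FN1 in DMSO) or more in every group. TWIST1, ALPL and COL1A2 were dim. TWIST1 averaged 2.17 to 17.9 over the groups. ALPL averaged 36.5 (DMSO) to 50.2 (doxorubicin), and COL1A2 averaged 34.9 (untreated cells) to 65.4 (doxorubicin). RUNX2, the osteoblast lineage factor, was lower with doxorubicin (-0.75 ± 0.13, limma adjusted p = 9.61e-05) and with nutlin-3 (-0.38 ± 0.13, adjusted p = 0.0377). Of 8 keratinocyte markers 6 were measured; their summed signal was 2993 to 4264 with doxorubicin, against 4363 to 5253 in untreated cells, and 3687 to 4488 with nutlin-3, against 3957 to 4261 in DMSO, and KRT10 made up most of it. KRT5 and KRT1 averaged 44.0 and 14.6 with doxorubicin, against 77.0 and 57.4 in untreated cells, and the KRT5 arrays overlapped. The direction depends on the control, as KRT5 and KRT1 averaged 25.2 and 7.31 in DMSO, below their doxorubicin means. With nutlin-3, KRT5 and KRT1 averaged 23.1 and 47.9. DSG3 averaged 49.0 with doxorubicin, against 36.7 in untreated cells, with overlap. IVL, an envelope protein, averaged 189 with doxorubicin, against 22.5 in untreated cells. The summed signal of 3 melanocyte markers was 214 to 299 with doxorubicin, against 92.3 to 208 in untreated cells, and 5 leukocyte markers summed to 290 to 307 with doxorubicin, against 138 to 260 in untreated cells. With nutlin-3 the melanocyte markers summed to 49.4 to 90.2, against 81.4 to 100.1 in DMSO, and the leukocyte markers to 199.5 to 308, against 96.9 to 208 in DMSO. CD3D, the only 1 of the 5 leukocyte markers bright enough to test, was higher with nutlin-3 (1.17 ± 0.36, limma adjusted p = 0.0230). Of the dim ones, LYZ and CD74 averaged higher with nutlin-3 than in DMSO (16.6 against 5.81 and 48.0 against 29.6). PTPRC and CD14 averaged lower (34.2 against 42.8 and 3.23 against 9.31). The 6 markers of simple epithelium summed to 19752 to 24640 with doxorubicin, against 27464 to 28688 in untreated cells, and to 26013 to 27451 with nutlin-3, against 20546 to 21233 in DMSO. KRT18 and KRT8 made up most of this sum. With nutlin-3, KRT18 and KRT8 were called higher and EPCAM lower (-0.68 ± 0.10, limma adjusted p = 8.61e-05). The KRT18 rise depends on the control, as its call was lost against no treatment (0.0085). KRT18 averaged 17981 with nutlin-3, 12873 in DMSO and 17872 in untreated cells, and KRT8 8080, 6717 and 8277. With doxorubicin, KRT18 and EPCAM were called lower and no marker of this list higher. KRT18 and EPCAM averaged 12824 and 1313 with doxorubicin, and 12873 and 1008 in DMSO. The 3 endothelial markers summed to 229 to 313 with doxorubicin, against 210 to 261 in untreated cells, and to 142 to 184 with nutlin-3, against 121 to 165 in DMSO. These are bulk arrays, so a change in the number of cells of a kind and a change in RNA per cell cannot be told apart.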

How the data were processed

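RNA of U2OS cells was amplified with a 3' in vitro transcription kit and hybridised to 12 arrays, per the labels' protocols. For every array the authors deposited linear intensities of the probe sets, made with MAS5 per the submitters' processing notes; its version and settings are not given in the sources used here. Detection calls were not used here. The arrays share a mean signal of 500.1 after trimming 2% of values at each end, and their number limits the precision.

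Intensities were turned into log2(value + 16). The 62 control probe sets and those under the 40th percentile of the mean (signal 49.3) were left out. Of 54613 probe sets, 41091 were paired with 1 gene, 1801 with several, and 11721 were not listed in the platform annotation. Symbols were updated through RefSeq GRCh38.p14 (13658 of 13673 matched). A gene is represented by its brightest one-gene probe set. The exception is the description of single probe sets, for which every probe set of a member was fitted. Genes were fitted with limma 3.58.1 in R 4.3.3 (lmFit, eBayes with an intensity trend), in one fit of 12 arrays with 4 group means and no block, and p-values were adjusted over 13673 genes. On data simulated for doxorubicin against no treatment over 13673 genes, 83% of 100 genes changed by 1 (log2) and 97% of 100 changed by 2 were recovered, with 8 false calls.

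The 10 genes, the 9 lists and the marker lists were chosen with earlier results of these data known. Members' values in all contrasts, DMSO against no treatment included, are given with no p. From each list the text names, per agent, at most 2 called genes that rose most and at most 2 that fell most, and not all of them are printed. Samples were grouped by title, and replicate numbers did not pair them: deviations of arrays with the same number correlated between -0.089 and 0.172, with 2 of 18 pairs over 0.1. Alternatives covered scaling, pseudocount, filter, choice of probe set, trend, 6-array fits, the replicate block, a stricter threshold, exchanged controls and each array left out. The array of lowest ACTB ratio alone was added after seeing the data.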

Additional observations from a re-analysis of the deposited data

How the results depend on the processing

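With doxorubicin all 10 genes were called in every alternative with more than 1 array per group that tested them, except exchanged controls. There 8 were called, against 59.5% of all genes. The nutlin-3 count, 7 as given (26.4% of all genes), was 4 with the filter at the 60th percentile (7 genes tested, 32.7% of all genes). It was 4 to 7 with single arrays left out, the lowest without nutlin-3 array 3 (20.8% of all genes). The DMSO count was 4 as given (14.1% of all genes) and 1 with the mean of all probe sets (12.9%). It was 2 in a fit of the 6 arrays (15%) and 1 at an adjusted p under 0.01 (6.08%). With single arrays left out it was 2 to 4, the lowest without DMSO array 3 (8.05%). Of the 74 other epidermal genes, 18 (24.3%, against 14.1% of all genes) were called in DMSO as given. At an adjusted p under 0.01 the count was 9, against 6.08% of all genes. With arrays left out it was 11 to 21, the lowest without DMSO array 2, where 8.67% of all genes were called. With nutlin-3, 20 were called as given and 32 against no treatment, while the share of all genes called was 26.4% and 39.7%. With exchanged controls GRHL1 turned to 0.040 with nutlin-3, the difference between agents to -0.44 for GRHL3 and 0.66 for KRT75, and KRT14 to 0.13 with doxorubicin. For DMSO, TGM1 (-0.02 as given) was 0.060 with quantile normalization and 0.11 with median centring, and -0.15 to 0.12 with arrays left out; SCEL was 0.037 with median centring and AQP3 -0.011 with the mean of probe sets. The cause of these turns was not tested.

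The replicate numbers did not pair the arrays. With the replicate number as a block, the members called were 10 with doxorubicin, 7 with nutlin-3, 9 for the difference and 3 in DMSO, where GRHL3 lost its call. The other epidermal genes called were 46, 23, 42 and 20 of 74. In the same order, 57.2%, 28.5%, 41.6% and 16.7% of all genes were called with the block. Signals near or under 49.3 limit the sizes given for GRHL3, RNASE7 and SCEL.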
